A study of Mus musculus with 32 samples.

Results

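Vascular endothelial growth factor (VEGF) ligands and their receptors were followed in the lungs of newborn mice: the ligands Vegfa, Vegfb and Vegfc, the receptor tyrosine kinases Flt1, Kdr and Flt4, and the neuropilin co-receptors Nrp1 and Nrp2. They were chosen by gene name in the annotation of the arrays, by a rule that uses no measured value, though with earlier results of these data known. The 8 genes, of 21515 on the array whose names matched a RefSeq symbol, were represented by 12 of the 55681 mouse probes, and all 12 probes were well above background on all 32 arrays. The study asked how blockade of the microRNA miR-34a bears on arrested alveolarization in a hyperoxia model of bronchopulmonary dysplasia (BPD), the chronic lung disease of infants born preterm. Whole lungs of C57Bl/6J mice of both sexes were taken at post-natal day (P)5 or P14 (P5.5 and P14.5 in the extraction notes), after exposure to 21% O2 or, from P1, to 85% O2. All pups, the controls included, received a locked nucleic acid oligonucleotide at 10 mg/kg by intraperitoneal injection at P1 and P3, either a scrambled sequence (scrambled antimiR) or one directed against miR-34a (antimiR-34a, called antagomiR in the labels). Both ages, both oxygen levels and both oligonucleotides gave 8 groups of 4 mice, with 1 mouse per array. The mice carried no targeted allele, and the antimiR was given to the whole animal, not to a cell type.

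VEGF-A is made in the lung mainly by the alveolar epithelium and binds Kdr and Flt1 on endothelium. Kdr carries most of the signal for endothelial growth and survival, and Flt1 binds VEGF-A tightly and also exists as a soluble decoy. VEGF-B binds Flt1, and VEGF-C binds Flt4, the receptor of lymphatic endothelium, as well as Kdr. The neuropilins bind both VEGF isoforms and class 3 semaphorins and form complexes with the receptors. VEGF signalling drives growth of the lung capillary bed, on which formation of alveoli depends.

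The agent given to the mice was directed at the mature microRNA below, from RefSeq on GRCm38.p6, where it lies at chr4:150068473-150068494 on the plus strand. Capitals mark the seed, bases 2 to 8, which pairs with target mRNA.
mmu-miR-34a-5p: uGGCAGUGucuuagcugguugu

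The 250 bases upstream of annotated starts are shown for Vegfa, whose probes gave different oxygen changes at P14, and for both neuropilins, whose oxygen change differed between the ages, from RefSeq on GRCm38.p6, 5′ to 3′ on the gene's strand. Vegfa has a pair of windows because RefSeq places a second start inside the gene. Capitals mark, on either strand, the GC box GGGCGG, bound by Sp1-type factors, and ACGTG. The latter is a form of the core of sites bound by the hypoxia-inducible factor (HIF). The windows are chr17:46032378-46032627 (minus strand) and chr17:46025164-46025413 (minus strand) for Vegfa, chr8:128358823-128359072 (plus strand) for Nrp1 and chr1:62703067-62703316 (plus strand) for Nrp2.
Vegfa, first start: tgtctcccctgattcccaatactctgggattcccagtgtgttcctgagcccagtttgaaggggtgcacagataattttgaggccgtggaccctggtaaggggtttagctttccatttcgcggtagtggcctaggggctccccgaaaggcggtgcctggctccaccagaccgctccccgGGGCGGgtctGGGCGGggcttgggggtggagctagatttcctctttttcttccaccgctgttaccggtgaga
Vegfa, internal start: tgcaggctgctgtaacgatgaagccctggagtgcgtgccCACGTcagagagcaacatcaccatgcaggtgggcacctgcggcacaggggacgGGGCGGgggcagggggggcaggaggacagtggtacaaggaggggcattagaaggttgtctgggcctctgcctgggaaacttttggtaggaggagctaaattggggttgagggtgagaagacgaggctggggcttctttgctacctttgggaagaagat
Nrp1: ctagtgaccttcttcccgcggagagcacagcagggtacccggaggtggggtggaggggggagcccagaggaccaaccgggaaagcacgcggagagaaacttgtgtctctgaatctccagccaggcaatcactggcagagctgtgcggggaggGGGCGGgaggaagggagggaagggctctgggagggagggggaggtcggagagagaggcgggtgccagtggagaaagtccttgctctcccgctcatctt
Nrp2: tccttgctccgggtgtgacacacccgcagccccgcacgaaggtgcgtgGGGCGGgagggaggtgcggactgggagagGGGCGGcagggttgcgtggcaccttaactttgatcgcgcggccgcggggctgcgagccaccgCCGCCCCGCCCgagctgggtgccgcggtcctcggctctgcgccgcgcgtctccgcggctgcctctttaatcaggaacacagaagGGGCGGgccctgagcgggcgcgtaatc
A GC box lay in 9 of the 9 windows found for the 8 genes, against 32.7% of 32851 RefSeq windows of the same length. Nrp2 had 5, the first Vegfa window 2 and Nrp1 1. ACGTG lay in 1 of the 9 windows, that of the internal Vegfa start, against 16.6% of all windows. Other forms of the HIF core were not searched. The search did not show whether any of these letters is bound in the lung, and a window without them says nothing of a factor.

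Each array gave 1 colour, and its precision is limited by the 4 arrays per group. Levels are log2 signal after subtraction of the 75th percentile of each array, so that 0 is the signal of that percentile and a difference of 1 is a 2-fold difference. That percentile ranged from 9.20 to 10.16 (log2) at P5 and from 9.34 to 10.20 at P14. Mouse 3 of P5 at 85% O2 with antimiR-34a (9.20), mouse 4 of P14 at 21% O2 with scrambled antimiR (9.34) and mouse 1 of P14 at 21% O2 with antimiR-34a (10.20) stood apart from the other lungs of their own groups. Without the first of these the counts of called members at P5 in its comparisons were the same. Each slide held 1 age and 1 oxygen level, so oxygen and age cannot be told apart from the slide and its scan. Within a slide, the row of arrays split the oligonucleotides, so the antimiR cannot be told apart from the row. The lungs carried their endothelial markers: the mean level of 9 pan-endothelial genes lay between 2.86 and 3.33 in the groups with scrambled antimiR at 21% O2. Skeletal muscle genes were listed at a mean level of 2.16 in mouse 4 of P5 at 21% O2 with scrambled antimiR, against a group median of -2.06, and the part of such tissue in the results was not tested.

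Across the 32 lungs, the VEGF genes were expressed in every group, and the oxygen level and the age changed some of them by up to 2.67-fold on their main probes. Vegfb, the Flt1 ligand, was higher in 85% O2 at both ages. Vegfa was higher in 85% O2 at P5. Nrp1 and Nrp2 moved in opposite directions between ages at 21% O2 and in 85% O2 at P14. Flt1 passed the test in none of the 4 oxygen comparisons, and none of the 8 genes did so for antimiR-34a.

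**Figure D1:**
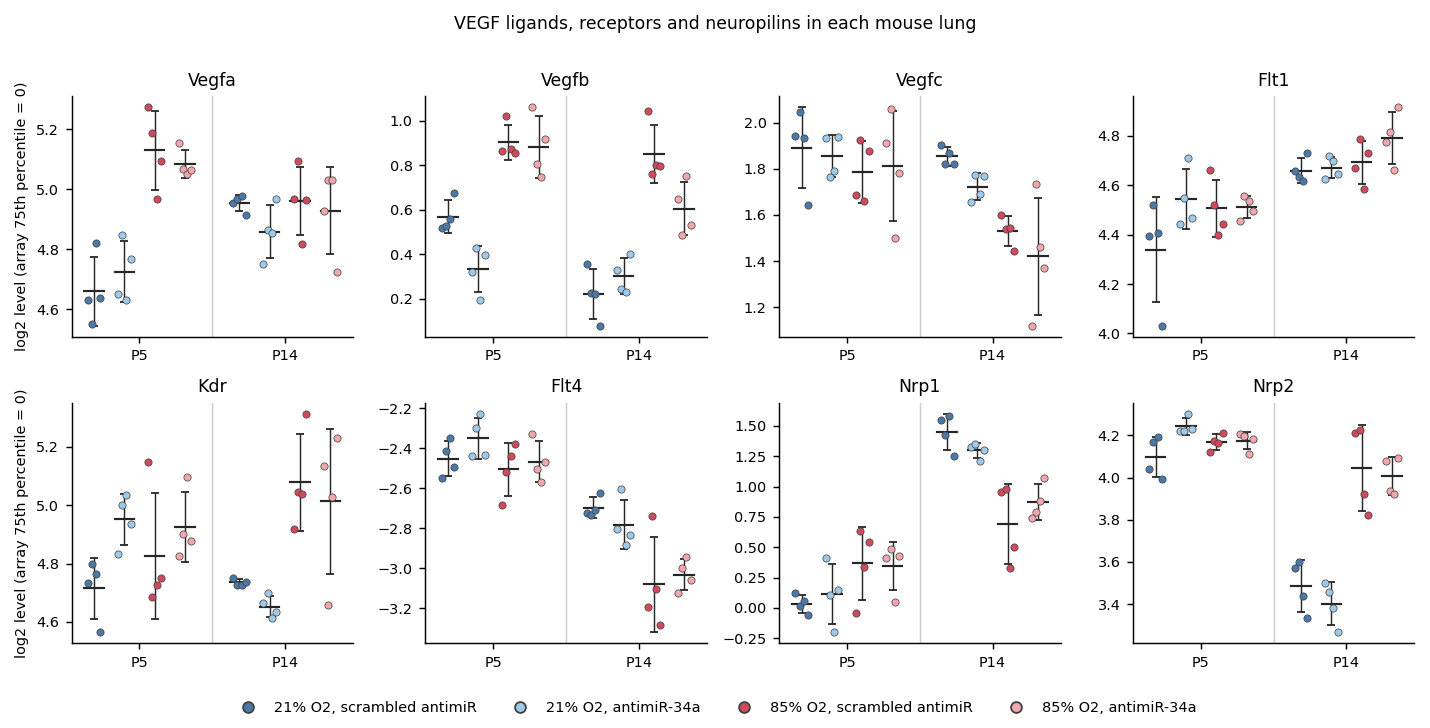
Each panel shows 1 gene on its main probe, with 1 point per mouse lung, the group mean (line) and SD (bar) as log2 level relative to the array's 75th percentile; axes differ between panels. The P5 lungs read 0.75 or more for Vegfb at 85% O2 and 0.68 or less at 21% O2, and the P14 lungs read 1.21 or more for Nrp1 at 21% O2 and 1.07 or less at 85% O2.

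Vegfa, the main angiogenic ligand, was measured by a probe at chr17:46154387-46154446 (mm9) with the highest signal and by another at chr17:46162376-46162435, 7.99 kb away. With scrambled antimiR at P5, the main probe read 4.63, 4.55, 4.82 and 4.64 in the 4 lungs at 21% O2 and 5.27, 5.19, 4.97 and 5.09 at 85% O2. All hyperoxia-exposed lungs were above all normoxic lungs. The log2 fold change was 0.47 (SE 0.08, 95% interval 0.30 to 0.64), a 1.39-fold increase (limma, adjusted p = 0.00027). With antimiR-34a, the levels of 4.65, 4.85, 4.63 and 4.77 at 21% O2 stood below those of 5.15, 5.07, 5.05 and 5.07 at 85% O2, a log2 fold change of 0.36 (SE 0.08, adjusted p = 0.0018).

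At P14 the main Vegfa probe did not pass the test. It read 4.96, 4.97, 4.98 and 4.92 at 21% O2 and 4.97, 5.09, 4.82 and 4.96 at 85% O2 with scrambled antimiR, and these groups overlapped. The log2 fold change was 0.01 (95% interval -0.17 to 0.18, adjusted p = 0.949), and with antimiR-34a it was 0.07 (95% interval -0.10 to 0.24, adjusted p = 0.463). Quantile normalization turned these values to -0.19 and -0.12. In the authors' own log2 values the first was -0.19 with an adjusted p of 0.048.

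The other Vegfa probe gave a different picture at P14. With scrambled antimiR it read 3.27, 3.28, 3.43 and 3.45 at 21% O2 and 4.00, 4.32, 4.58 and 4.72 at 85% O2, without overlap. Its log2 fold change was 1.05 (SE 0.16, 95% interval 0.69 to 1.40), a 2.07-fold increase (adjusted p = 9.67e-05). With antimiR-34a it was 0.94 (SE 0.16, adjusted p = 0.00019). At P5 this probe was higher in 85% O2 as well, by 0.65 (SE 0.14, adjusted p = 0.0021) with scrambled antimiR and by 0.43 (SE 0.14, adjusted p = 0.023) with antimiR-34a.

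The gap between the probes was therefore taken lung by lung. At P14 with scrambled antimiR, the other probe minus the main probe was -1.60 ± 0.11 (SD, n = 4) at 21% O2 and -0.56 ± 0.37 at 85% O2. This change of 1.04 had a p of 0.0286 in an exact two-sided permutation test over 70 splits, the smallest value it can give, and an adjusted p of 0.152 over 16 such tests of the 4 genes with a second probe. With antimiR-34a the change at P14 was 0.87 (exact permutation p = 0.0286, adjusted p = 0.152), and at P5 the changes were 0.18 and 0.07. The gap between the Nrp2 probes changed by 0.56 at P5 with antimiR-34a, with the same p and adjusted p. As the smallest p is 0.0286, changes in 1 gene alone could not pass an adjustment over 16 tests, and the adjusted values say nothing for or against a change. The comparison was chosen after the probe values were seen. The arrays do not say which transcript each signal came from.

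**Figure D2:**
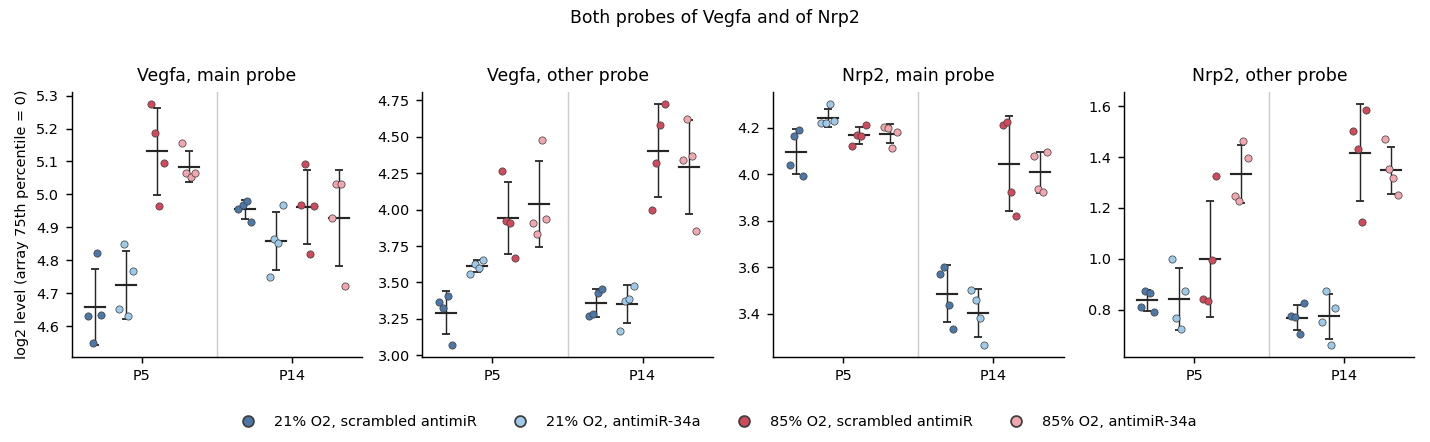
Points are single lungs, lines are group means and bars are SD, on the log2 level scale, for the main and the other probe of Vegfa and of Nrp2 in all 8 groups; axes differ between panels. At P14, the main Vegfa probe overlaps between 21% and 85% O2 while the other probe reads 3.48 or less at 21% O2 and 3.85 or more at 85% O2, and both Nrp2 probes are higher at 85% O2.

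Vegfb, a ligand of Flt1 and Nrp1, was higher in 85% O2 in all 4 oxygen comparisons. Its probe lies at chr19:7057245-7057304 (mm9). At P5 with scrambled antimiR it read 0.52, 0.53, 0.56 and 0.68 at 21% O2 and 0.86, 1.02, 0.87 and 0.86 at 85% O2, a log2 fold change of 0.33 (SE 0.08, 1.26-fold, adjusted p = 0.0031). At P14 it read 0.36, 0.23, 0.22 and 0.08 at 21% O2 and 1.04, 0.76, 0.80 and 0.80 at 85% O2, a log2 fold change of 0.63 (SE 0.09, 1.55-fold, adjusted p = 2.96e-05). Neither pair of groups overlapped. With antimiR-34a the log2 fold change was 0.55 (SE 0.08, adjusted p = 5.86e-05) at P5 and 0.30 (SE 0.09, adjusted p = 0.0067) at P14, again without overlap. Under the scalings tried, the P14 change with scrambled antimiR stayed between 0.59 and 0.63. In the order of its 8 group means, Vegfb was highest at P5 in 85% O2 with scrambled antimiR (0.90) and lowest at P14 in 21% O2 with scrambled antimiR (0.22). Neighbours in that order overlapped except at 2 steps, from 0.85 to 0.61 and from 0.57 to 0.34.

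Vegfc, the ligand of Flt4 that directs lymphatic growth, was lower in 85% O2 at P14 and did not pass the test at P5. At P14 with scrambled antimiR its probe (chr8:55271533-55271592, mm9) read 1.90, 1.82, 1.87 and 1.82 at 21% O2 and 1.60, 1.54, 1.54 and 1.44 at 85% O2. The groups did not overlap, and Vegfc fell by 0.32 on the log2 scale (SE 0.10, 1.25-fold, adjusted p = 0.0118). With antimiR-34a it read 1.66, 1.77, 1.69 and 1.77 at 21% O2 and 1.12, 1.73, 1.46 and 1.37 at 85% O2, where 1 hyperoxic lung reached the normoxic range. That change of -0.30 (SE 0.10, adjusted p = 0.0159) became -0.20 (adjusted p = 0.0509) without mouse 1 of the 85% O2 group, and it was not called with only the groups compared (adjusted p = 0.0692) or by the methods' t-test (adjusted p = 0.136). At P5 the changes were -0.10 (95% interval -0.35 to 0.14) and -0.04 (95% interval -0.29 to 0.21).

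Flt1, the receptor that also serves as a decoy, had 8 group means that spanned 0.45 on the log2 scale. Its main probe (chr5:148373791-148373850, mm9) gave group means from 4.34 ± 0.21 (SD, n = 4) at P5 in 21% O2 with scrambled antimiR to 4.79 ± 0.10 at P14 in 85% O2 with antimiR-34a, and all neighbours in the order of the 8 means overlapped. The oxygen changes with scrambled antimiR were 0.17 (95% interval -0.04 to 0.38) at P5 and 0.03 (95% interval -0.11 to 0.18) at P14. With antimiR-34a they were -0.03 (95% interval -0.24 to 0.18) and 0.12 (95% interval -0.02 to 0.26). After quantile normalization the P14 value with scrambled antimiR was -0.17 (adjusted p = 0.044). The other Flt1 probe, 92.2 kb away and named from a cDNA record, read between -4.76 and -3.22, and no oxygen change of it passed the test.

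Kdr, the principal signalling receptor, was higher in 85% O2 at P14. With scrambled antimiR its main probe (chr5:76329309-76329368, mm9, 10 spots per array) read 4.75, 4.73, 4.73 and 4.74 at 21% O2 and 4.92, 5.04, 5.04 and 5.31 at 85% O2. The groups did not overlap, with a log2 fold change of 0.34 (SE 0.11, 1.27-fold, adjusted p = 0.0142). With antimiR-34a it was 0.36 (SE 0.11, adjusted p = 0.0096), although 1 lung at 85% O2 read 4.66, within the normoxic range. Under quantile normalization these calls ended, at 0.14 and 0.17, and in all they ended under 4 and 3 of 10 settings other than leaving out 1 array (largest adjusted p = 0.401 and 0.269). The other Kdr probe, 1.09 kb away, changed by 0.23 (adjusted p = 0.189) with scrambled antimiR and by 0.41 (adjusted p = 0.024) with antimiR-34a. At P5 the main probe changed by 0.11 (95% interval -0.10 to 0.33) and -0.03 (95% interval -0.24 to 0.19).

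Flt4, the lymphatic receptor, gave a low signal, with levels from -3.28 to -2.23 (chr11:49465646-49465705, mm9). At P14 with scrambled antimiR it read -2.73, -2.73, -2.71 and -2.62 at 21% O2 and -3.20, -2.74, -3.11 and -3.28 at 85% O2. The groups were separate, though by little for 1 lung, and Flt4 fell by 0.38 on the log2 scale (SE 0.10, adjusted p = 0.0054). With antimiR-34a the change was -0.25 (SE 0.10, adjusted p = 0.046), and this call was lost in 6 of 8 fits without 1 array (largest adjusted p = 0.142). With another background correction (normexp) the 2 values were -0.07 and -0.08 and the calls ended, and under quantile normalization the second turned to 0.18 (adjusted p = 0.228). In all, the call with scrambled antimiR ended under 4 of 10 settings other than leaving out 1 array. At P5, Flt4 changed by -0.05 and -0.12, neither called.

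Nrp1, the co-receptor of Kdr and of class 3 semaphorins, was the member with the widest range between ages. At P14 with scrambled antimiR, its probe (chr8:131026650-131026709, mm9) read 1.55, 1.43, 1.58 and 1.26 at 21% O2 and 0.96, 0.98, 0.32 and 0.50 at 85% O2. All hyperoxic lungs lay below all normoxic lungs, and Nrp1 fell by 0.76 on the log2 scale (SE 0.14, 95% interval -1.06 to -0.47), 1.70-fold lower (adjusted p = 0.00029). With antimiR-34a it read 1.33, 1.35, 1.21 and 1.30 at 21% O2 and 0.74, 0.79, 0.88 and 1.07 at 85% O2, a fall without overlap of 0.43 (SE 0.14, adjusted p = 0.0135). At P5 the sign was the opposite. In the scrambled antimiR groups, Nrp1 read 0.12, 0.01, 0.06 and -0.06 at 21% O2 and -0.04, 0.63, 0.34 and 0.54 at 85% O2, and this difference of 0.33 did not pass the test (95% interval 0.01 to 0.65, adjusted p = 0.084). It did so without mouse 1 of the hyperoxic group, at 0.47 (adjusted p = 0.0118), and with normexp, at 0.34 (adjusted p = 0.048).

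Nrp2, the neuropilin of lymphatic and venous endothelium and a co-receptor for VEGF-C, was higher in 85% O2 at P14. Its main probe (chr1:62865129-62865188, mm9) read 3.57, 3.60, 3.44 and 3.34 at 21% O2 and 4.21, 4.23, 3.92 and 3.82 at 85% O2 with scrambled antimiR. This rise of 0.56 on the log2 scale (SE 0.10, 1.48-fold, adjusted p = 0.00029) became 0.61 (SE 0.10, adjusted p = 0.00013) with antimiR-34a, both without overlap. The other Nrp2 probe, 21.8 kb away and named from a different transcript model, rose by 0.65 (SE 0.09, adjusted p = 3.13e-05) and 0.57 (SE 0.09, adjusted p = 7.3e-05). At P5 the main probe changed by 0.07 and -0.07, not called. There the other probe differed with antimiR-34a only in the test within that group, at 1.00, 0.77, 0.72 and 0.87 in 21% O2 against 1.25, 1.23, 1.46 and 1.40 in 85% O2 (0.49, adjusted p = 0.0012), and the test of whether the antimiR altered this oxygen effect gave an adjusted p of 0.425.

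**Figure D3:**
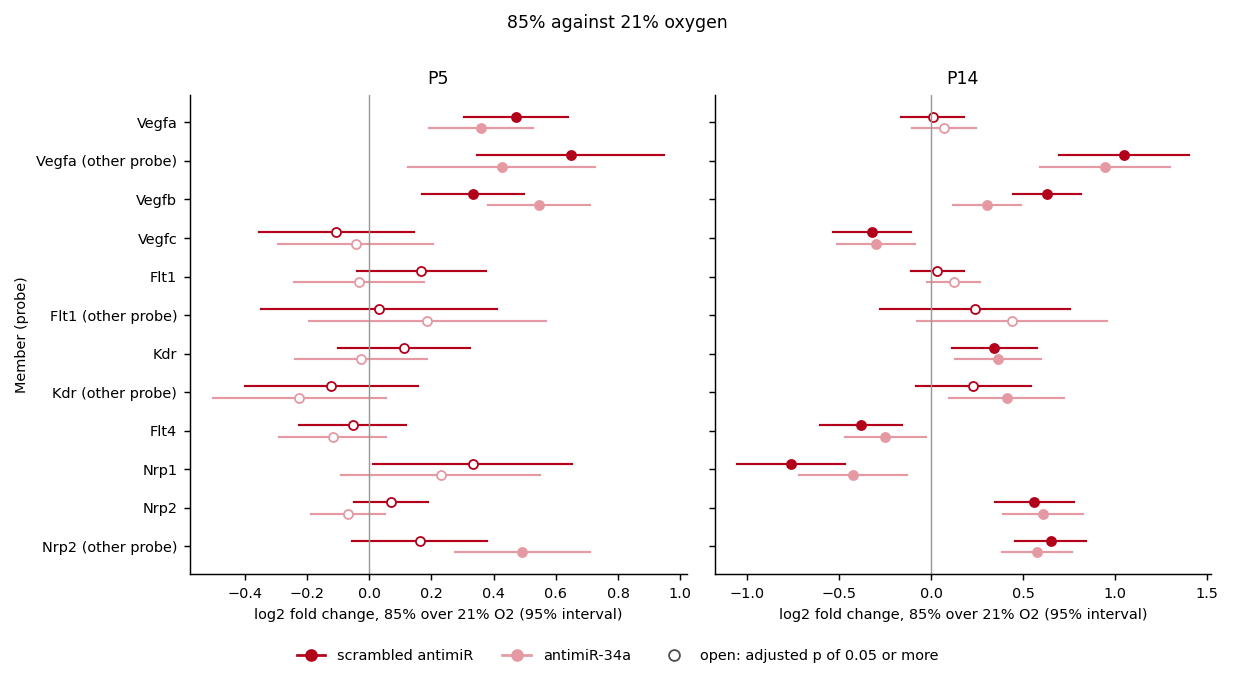
Points are log2 fold changes of 85% over 21% O2 for all 12 probes, at P5 and P14, with 95% intervals, dark for scrambled antimiR and pale for antimiR-34a; filled points have an adjusted p below 0.05. Vegfb lies right of 0 in all 4 comparisons, and at P14 Nrp2 lies right and Nrp1, Vegfc and Flt4 lie left of 0.

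Read against all tested probes, the number of changed members was not large. At P5 with scrambled antimiR, 2 of the 8 were called, both higher, where 43.9% of all tested probes were called, 17.4% higher and 26.5% lower. With antimiR-34a it was again 2 of 8, both higher, where 46.6% of probes were called, 17.1% higher and 29.5% lower. At P14 with scrambled antimiR, 6 of 8 were called, 3 higher and 3 lower, against 60.9% of probes, 28.2% higher and 32.7% lower. With antimiR-34a it was also 6 of 8, 3 higher and 3 lower, against 65.5% of probes, 27.6% higher and 37.9% lower. The median change over the 8 genes was 0.14 and -0.03 at P5 and 0.02 and 0.09 at P14, where the medians over all tested probes were -0.07, -0.09, -0.07 and -0.12.

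The split of all called probes depended on the scaling. The share called higher was 39.7% and 36.8% at P5 and 46.3% and 42.1% at P14. Under quantile normalization it was 52.8% and 49.1% at P5 and 51.9% and 56% at P14, and with normexp it was 62.1% and 53% at P14. The median of all probes at P14 moved from -0.07 to 0.10 with normexp for scrambled antimiR, and from -0.12 to 0.08 under quantile normalization for antimiR-34a. Relative to the median of all probes, the P14 changes with scrambled antimiR were -0.69 for Nrp1, 0.63 for Nrp2, 0.70 for Vegfb and -0.25 for Vegfc, and under quantile normalization -0.82, 0.37, 0.58 and -0.41.

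The arrays hold whole lung, in which fewer cells of a type and less RNA per cell cannot be told apart. The 10 pan-endothelial genes did not move as a block. With scrambled antimiR, 3 were higher and 4 lower in 85% O2 at P5 (median change -0.12), and 4 were higher and 3 lower at P14 (0.07). Over all tested probes, 17.4% were higher and 26.5% lower at P5, and 28.2% and 32.7% at P14. At P14 Cldn5, a tight junction protein, rose by 0.85, and Tek, the angiopoietin receptor, fell by 2.47 on the log2 scale. The mean level of 9 of these genes, Tek among them and Robo4 left out for a missing spot, ranged from 3.28 to 3.33 at P14 in 21% O2 with scrambled antimiR and from 2.99 to 3.11 in 85% O2. Expressed relative to that mean in each lung, Nrp1 was -1.84 ± 0.13 (SD, n = 4) at 21% O2 and -2.38 ± 0.29 at 85% O2, Nrp2 was 0.19 ± 0.13 and 0.98 ± 0.16, and Vegfb was -3.07 ± 0.11 and -2.22 ± 0.12. Tek enters that mean. Without it, a choice made after the data were seen, the mean of the other 8 ranged from 3.46 to 3.53 at 21% O2 and from 3.49 to 3.57 at 85% O2. Relative to these 8 genes, Nrp1 was -2.03 ± 0.14 and -2.85 ± 0.31, Nrp2 was 0.00 ± 0.14 and 0.51 ± 0.18, and Vegfb was -3.26 ± 0.12 and -2.69 ± 0.13, so these differences kept their sign. The falls of Vegfc and Flt4 were smaller against the 9 genes, from -1.44 ± 0.04 to -1.54 ± 0.02 and from -5.99 ± 0.06 to -6.15 ± 0.21, than against the 8, from -1.63 ± 0.05 to -2.01 ± 0.04 and from -6.18 ± 0.06 to -6.62 ± 0.21. Kdr went from 1.44 ± 0.03 to 2.01 ± 0.22 against the 9 and from 1.25 ± 0.04 to 1.54 ± 0.20 against the 8. For Vegfa and Flt1 the sign turned with the reference, from 1.66 to 1.89 and from 1.37 to 1.63 against the 9 genes and from 1.47 to 1.42 and from 1.18 to 1.15 against the 8. The part of the endothelium in the values of the 8 members was not tested.

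Other cell type markers moved as well with scrambled antimiR, where over all probes 17.4% were higher and 26.5% lower at P5, and 28.2% and 32.7% at P14. Of 4 general capillary markers, 1 was higher and 1 lower in 85% O2 at P5, and 1 was higher and 3 lower at P14. Those lower at P14 included Aplnr, the apelin receptor, at -1.79, and Gpihbp1, which anchors lipoprotein lipase, at -1.38. The mean level of these 4 genes ranged from 4.06 to 4.13 at 21% O2 and from 3.29 to 3.35 at 85% O2. Of 5 aerocyte markers, 2 were higher and 2 lower at P14. With antimiR-34a, aerocyte markers were higher in 1 and lower in 4 cases at P5 and in 2 and 3 at P14, and general capillary markers were higher in 1 and lower in 2 of 4 cases at P5 and in 1 and 3 at P14. Among 4 tested lymphatic markers, with scrambled antimiR at P14, Lyve1, also a macrophage gene, rose by 1.48 and Pdpn, also a type I pneumocyte gene, by 0.35. Prox1, the lymphatic master regulator, fell by 0.59 there. At P5 with either oligonucleotide, and at P14 with antimiR-34a, 2 of the 4 were higher and 0 lower. With scrambled antimiR, type I pneumocyte markers rose in 6 of 7 cases at P5 and 4 of 7 at P14. Of 7 type II pneumocyte markers, 5 were lower at P14 and 1 was higher. Macrophage markers rose in 5 of 5 cases at P5 and 4 of 5 at P14. Of 8 skeletal muscle genes 5 were lower at each age, of 8 heart muscle genes 6 were lower at P5 and 4 at P14, and of 6 red blood cell genes 2 and 3 were lower. No gene of these last 3 lists was higher. The normoxic P5 group of these counts held the lung with high skeletal muscle genes. With antimiR-34a, 2 of 8 skeletal and 1 of 8 heart muscle genes were lower at P5 and 4 and 3 at P14, where 29.5% and 37.9% of all probes were lower. The part of any of these cell types in the values of the VEGF genes was not tested.

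Between P5 and P14, normal lungs changed in both neuropilins. At 21% O2 with scrambled antimiR, Nrp1 rose by 1.42 on the log2 scale (SE 0.15, 2.67-fold, adjusted p = 1.75e-08), from 0.03 ± 0.07 (SD, n = 4) to 1.45 ± 0.15. Nrp2 fell by 0.61 (SE 0.08, 1.53-fold, adjusted p = 5.34e-07), from 4.10 ± 0.10 to 3.49 ± 0.12, while its other probe changed by -0.07 (adjusted p = 0.575). Vegfa rose by 0.30 (SE 0.08, adjusted p = 0.0024) on its main probe and by 0.07 (adjusted p = 0.748) on the other, and Flt1 rose by 0.32 (SE 0.08, adjusted p = 0.0019). Vegfb fell by 0.35 (SE 0.08, adjusted p = 0.00069) and Flt4 by 0.24 (SE 0.09, adjusted p = 0.027). The Flt4 call was lost in 4 of 8 fits without 1 array (largest adjusted p = 0.082) and with normexp (-0.14, adjusted p = 0.165). With the median of a gene's probes, Flt1 gave 0.20 (adjusted p = 0.147) and Vegfa 0.18 (adjusted p = 0.134), and the methods' t-test did not call Flt1 (adjusted p = 0.101). Kdr and Vegfc changed by 0.02 and -0.04, neither called. Of the 8, 6 were thus called, 3 higher and 3 lower, where 51.4% of all tested probes were called, 27.7% higher and 23.8% lower.

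At 85% O2 only Flt4 passed the test between the ages on main probes, with a fall of 0.57 (SE 0.09, adjusted p = 1.58e-05), 0.17 with normexp (adjusted p = 0.068). Nrp1 changed by 0.32 (adjusted p = 0.077) and Nrp2 by -0.12 (adjusted p = 0.221). The count depended on the setting: it was 4 with quantile normalization, which also called Vegfa at -0.37, Vegfc at -0.29 and Nrp2 at -0.27, and 2 with normexp, which called Nrp1 at 0.37 and Nrp2 at -0.34 and not Flt4. The count of 1 of 8, lower, stood against 42.1% of all tested probes, 25.6% higher and 16.5% lower, and 6 of the 8 had an unadjusted p below 0.05, as did 49.2% of all probes. Among all called probes the share higher was 60.7%, 47.9% under quantile normalization and 71.4% with normexp, which moved the median of all probes from 0.08 to 0.20. The other probes of Vegfa, Kdr and Nrp2 rose by 0.46, 0.55 and 0.42, while their main probes changed by -0.17, 0.25 and -0.12. Over all 12 probes, 3 were called higher, none of them a main probe, and 1 was called lower. The age and oxygen comparisons share the same arrays, so their values stand side by side and are not independent.

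The difference of the oxygen effect between P14 and P5 was tested directly with scrambled antimiR. It was -1.10 for Nrp1 (SE 0.21, 95% interval -1.52 to -0.67, adjusted p = 0.00017), 0.49 for Nrp2 (SE 0.11, adjusted p = 0.0010) and -0.46 for Vegfa (SE 0.11, adjusted p = 0.0014). For the other Nrp2 probe it was 0.49 (adjusted p = 0.0054), and for the other Vegfa probe 0.40 (adjusted p = 0.152), of opposite sign to the main probe. Vegfb gave 0.30 (adjusted p = 0.036) and Flt4 gave -0.33 (adjusted p = 0.043), values close to the threshold. When 1 array was left out, Flt4 lost its call in 12 of 16 fits and Vegfb in 7 of 16. Under 9 other settings, Vegfb lost its call in 4 (0.25 at the lowest, largest adjusted p = 0.092). Flt4 lost its call in 6 of these, at -0.04 with normexp (adjusted p = 0.809). Flt1, Kdr and Vegfc gave -0.13, 0.23 and -0.22, not called. Of the 8, 5 were called, 2 higher and 3 lower, where 40.8% of all tested probes were called, 22.8% higher and 18% lower. The higher share among called probes was 55.8%, and 66.7% with normexp, which moved the median from 0.04 to 0.16.

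None of the 8 genes passed the adjusted threshold (limma) for antimiR-34a against scrambled antimiR in any group. At P5, 0 of 8 were called at 21% O2, where 0.136% of all tested probes were called, and 0 of 8 at 85% O2, where 0.0639% were. At P14, 0 of 8 were called at 21% O2, with 0% of probes, and 0 of 8 at 85% O2, with 2.67% of probes. Without both P14 arrays of outlying brightness, a choice made after the data were seen, 6729 probes (16.8%) were called at 21% O2 and the members stayed at 0 of 8. The tests of whether antimiR-34a altered the oxygen effect called 0 of 8 at P5, with 0.0556% of probes, and 0 of 8 at P14, with 0.0884%. At an unadjusted p below 0.05, these comparisons gave 3, 0, 0, 1, 0 and 1 of the 8, where 17.6%, 13.1%, 10.5%, 16.5%, 10.8% and 15% of all tested probes had such a p. The methods' t-test called 0 of 8 in each of the 4 comparisons it could be run on.

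On the main probes, Vegfb had the lowest unadjusted p of the 8 members, while the other probes of Flt1 and Nrp2 gave lower ones at P5. At 21% O2 at P5 it read 0.32, 0.43, 0.20 and 0.39 with antimiR-34a, all below the 0.52 to 0.68 of scrambled antimiR, a difference of -0.23 (95% interval -0.40 to -0.07, adjusted p = 0.169). At 85% O2 at P14 it read 0.65, 0.49, 0.75 and 0.53, below the 0.76 to 1.04 of scrambled antimiR, a difference of -0.25 (95% interval -0.43 to -0.06, adjusted p = 0.159). The change of its oxygen effect at P14 was -0.33 (95% interval -0.59 to -0.07, adjusted p = 0.253), and that of Nrp1 was 0.34 (adjusted p = 0.418). The other Flt1 probe, of low signal, was higher with antimiR-34a at P5 by 0.62 at 21% O2 and 0.77 at 85% O2 (adjusted p = 0.137 and 0.129), while the main probe differed by 0.20 and 0.00. Kdr and Nrp2 at P5 in 21% O2 differed by 0.24 and 0.15, with adjusted p of 0.251 and 0.218.

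**Figure D4:**
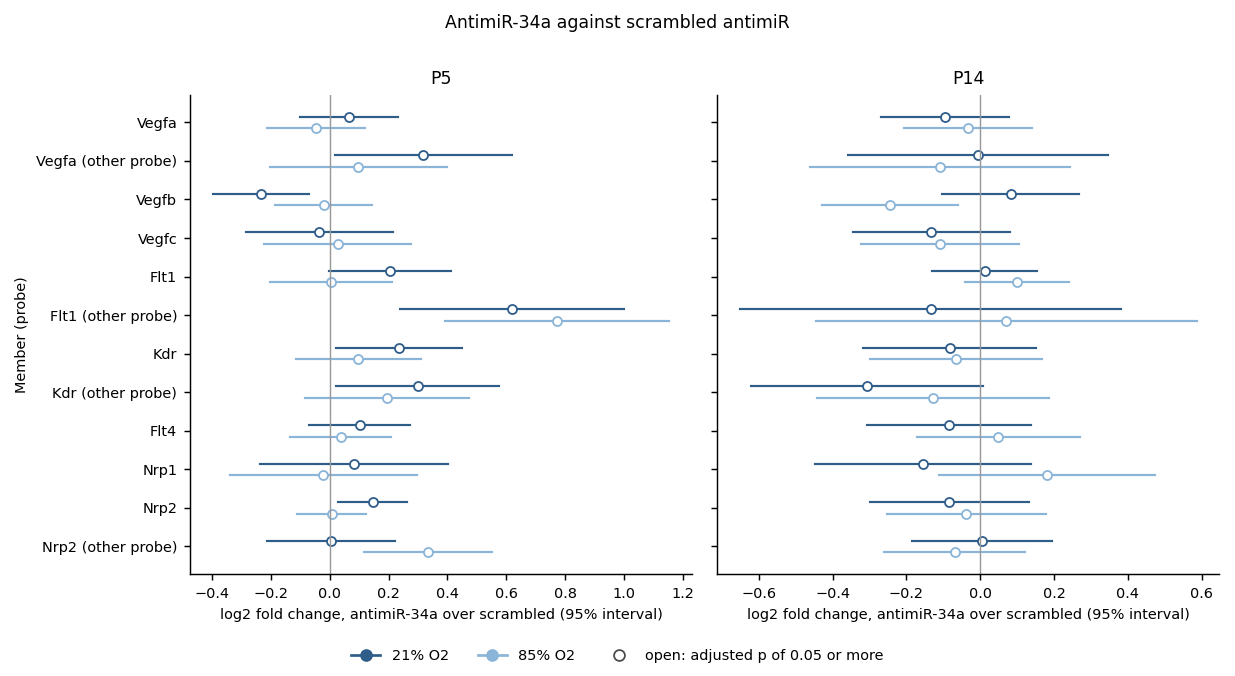
Points are log2 fold changes of antimiR-34a over scrambled antimiR for all 12 probes, at P5 and P14, with 95% intervals, dark for 21% O2 and pale for 85% O2; open points have an adjusted p of 0.05 or more. All points are open, and Vegfb at P5 in 21% O2 and at P14 in 85% O2 lies at -0.23 and -0.25 with intervals left of 0.

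Some other genes of the pathway had larger changes than any of the 8 members. Of 8 tested relatives and signalling partners, 85% O2 raised 3 and lowered 2 at P5, and raised 4 and lowered 2 at P14, with scrambled antimiR, with medians of 0.04 and 0.28 over the list. Over all tested probes, 17.4% were called higher and 26.5% lower at P5, and 28.2% and 32.7% at P14. Pgf, a ligand of Flt1 and not of Kdr or Flt4, rose by 1.01 (SE 0.15, adjusted p = 0.00011) at P5 and by 2.22 (adjusted p = 6.23e-07) at P14. Ptprb, the endothelial phosphatase that restrains Kdr and Tek, fell by 0.20 at P5 and 1.27 at P14 (adjusted p = 4.33e-09), and Sh2d2a, an adaptor that binds Kdr, fell by 0.54 and 1.08. Ccbe1, which takes part in the activation of VEGF-C, rose by 0.47 and 0.46. Vegfd, listed under its older symbol Figf, changed by -0.28 at P5 (not called) and rose by 0.38 at P14 (adjusted p = 0.021).

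With scrambled antimiR, genes of endothelial tip cells and genes induced by VEGF were higher in 6 of 7 cases at P5, where 17.4% of all probes were, and in 5 of 7 at P14, where 28.2% were and 1 of the list was lower, with list medians of 0.61 and 0.47. With antimiR-34a, 3 were higher and 2 lower at P5 (median 0.26), and 5 were higher and 0 lower at P14 (median 0.46). The shares over all probes there were 17.1% higher and 29.5% lower at P5, and 27.6% and 37.9% at P14. Apln, the tip cell ligand of Aplnr and also an aerocyte marker, rose by 1.80 (adjusted p = 5.21e-07) and 2.44 (adjusted p = 2.79e-09). Nrarp, a Notch-regulated gene, rose by 0.75 and 0.97, and Angpt2, the antagonist of Tek signalling, by 0.31 and 1.09. Esm1, an endothelial proteoglycan, rose by 1.06 at P5 and fell by 0.40 at P14. Dll4, the Notch ligand of tip cells, rose by 0.52 at P5 and gave -0.01 at P14.

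Of 12 semaphorins and plexins, the ligands and partners of the neuropilins, 6 were higher and 3 lower at each age with scrambled antimiR, beside 17.4% and 26.5% of all probes at P5 and 28.2% and 32.7% at P14, with list medians of 0.05 and 0.19. Sema3g, a ligand of Nrp2, fell by 0.72 at P5 and by 0.92 at P14. Sema3d rose by 1.13 at P14 and Sema3e, the ligand of Plxnd1, by 0.80 at P5, each uncalled at the other age. Sema3c rose by 0.29 at P5 and fell by 0.65 at P14. Of 12 genes of oxygen sensing, 7 passed the test at P5 (5 higher, 2 lower) and 8 at P14 (5 higher, 3 lower), with medians of 0.16 and 0.13, where 43.9% and 60.9% of all probes passed. Slc2a1, the glucose transporter induced by HIF, rose by 0.71 and 1.18, and Adm, adrenomedullin, by 1.14 and 0.93. Ankrd37, a HIF target, rose by 1.63 at P14, and Egln3, a HIF prolyl hydroxylase that HIF itself induces, fell by 0.60 at P5 and rose by 0.48 at P14. No list was tested as a set, and all of these comparisons share the arrays of the 8 members.

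**Figure D5:**
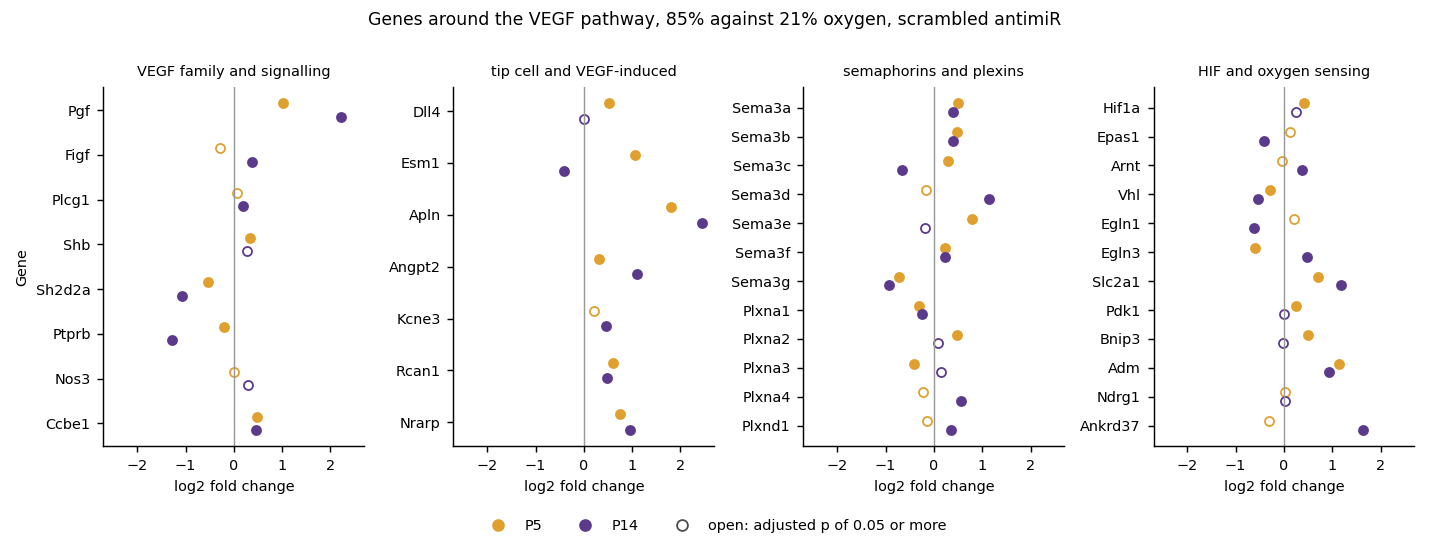
Points are log2 fold changes of 85% over 21% O2 with scrambled antimiR, at P5 (orange) and P14 (purple), for the tested genes of 4 lists; filled points have an adjusted p below 0.05. Pgf and Apln lie farthest right, at 2.22 and 2.44 at P14, and Ptprb and Sh2d2a farthest left in the first panel.

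Under antimiR-34a few genes of the lists passed the test. Nrarp was higher at P5 in 21% O2, by 0.73 (adjusted p = 0.031), and lower at P14 in 85% O2, by -0.78 (adjusted p = 0.025). Its oxygen effect at P5 differed by -1.19 between the antimiR groups (adjusted p = 0.0127). Ankrd37 was higher at P5 in 85% O2, by 2.04 (adjusted p = 0.00065), and Sh2d2a by 0.59 (adjusted p = 0.028). The oxygen effect on Ankrd37 at P5 differed by 2.22 between the antimiR groups (adjusted p = 0.0057). Tbx2, an aerocyte marker, was higher by 0.40 at P5 in 21% O2, and Cldn5 lower by -0.29 at P14 in 85% O2. These calls depended on the test. Over all probes, the methods' t-test with adjustment called 1 at P5 in 21% O2 and 0 at either age in 85% O2, and a fit on only the groups compared called 259 at P5 in 21% O2, against 49 over all groups of that age, and 0 at P5 and 2 at P14 in 85% O2.

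The genes whose levels followed a member most closely over the 32 arrays were Capn1, Map1lc3b and Cebpg for Nrp1 (Pearson r 0.961, 0.951 and 0.951) and Lsm3, Commd10 and Arpc1a for Nrp2 (0.952, 0.945 and 0.940). For Flt4 they were Slc24a5, Tmem88 and Gemin8 (0.913, 0.900 and 0.898). The closest gene was Etnk1 for Kdr (0.859), Sgpp1 for Flt1 (0.815) and Asah1 for Vegfa (0.812). They are the nearest of 14518 candidate genes, and the arrays share age, oxygen level and slide, so these values describe shared group differences.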

How the data were processed

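Total RNA of whole lung from 32 mice was labelled with Cy3 and hybridised to Agilent-028005 SurePrint G3 Mouse GE 8x60K arrays. Per the file headers, the authors' deposited intensity values came from Agilent Feature Extraction 10.7.3.1, which had subtracted background and given each spot flags (0 or 1) for outliers and for signal well above background. A deposited series table of log2 values by the authors, alike in distribution between arrays as after quantile normalization, was an alternative only. Probe coordinates are those of the deposited annotation (mm9). The RNA kit (miRNeasy or peqGOLD) and anaesthetic differ between labels and methods. Groups came from the labels, and oxygen levels, dose and injection days from the methods.

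Control and outlier spots were left out, repeated spots were averaged, and log2 processed intensity minus the array's 75th percentile was used. A probe was tested if some group of the fit had it well above background on each of its 4 arrays, which left 35984 probes (P5), 38458 (P14) and 39163 (both ages). Fits used R 4.3.3 and limma 3.58.1 (lmFit, eBayes, 1 mean per group), on 16 arrays within an age and on 32 between ages, with Benjamini-Hochberg adjustment over all tested probes and a threshold of 0.05. A gene's main probe had the highest mean level. Of each list, up to 4 genes with the largest called oxygen change were named, and for 6 of the members their nearest genes (those of Vegfb and Vegfc are not reported here). Other genes are named only for a small count and were chosen after their values were seen. The members and lists were chosen with earlier results of these data known. RefSeq tables (GRCm38.p6) gave the sequences, with all 8 members matched. The fits were tested on simulated data. Alternatives were other background corrections, normalizations, filters and tests, a replicate block, the slide as a block, the median of a gene's probes and leaving out arrays.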

Additional observations from a re-analysis of the deposited data

Results flagged for a closer look

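Within the groups of 4, the highest or lowest lung lay far from the others in 6 of the 64 sets of a gene and a group, where chance alone gives about 1 in 20. At P5 in 85% O2 with antimiR-34a, Vegfa read 5.15 in mouse 1 (nearest lung 5.07) and Nrp1 read 0.053 in mouse 3 (nearest 0.41). At P5 in 85% O2 with scrambled antimiR, Vegfb read 1.02 in mouse 2 (nearest 0.87) and Kdr read 5.15 in mouse 1 (nearest 4.75). Vegfb read 1.04 in mouse 1 of P14 in 85% O2 with scrambled antimiR (nearest 0.80), and Nrp2 read 4.30 in mouse 3 of P5 in 21% O2 with antimiR-34a (nearest 4.23).

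The oxygen effect with scrambled antimiR differed between P14 and P5 by the test of that difference in 5 genes (limma, adjusted p below the threshold). The values were -1.10 for Nrp1, 0.49 for Nrp2, -0.46 for Vegfa, -0.33 for Flt4 and 0.30 for Vegfb. Those of Flt4 and Vegfb were close to the threshold and missed it in 12 and 7 of 16 fits without 1 array. They also missed it under 6 and 4 of 9 other settings, and that of Vegfa did under 1, the median of its probes. Each oxygen level of each age was on its own slide, and the part of the slide in these differences cannot be told apart from age and oxygen.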

How the results depend on the processing

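Over the 28 called changes of a member, 534 values were recomputed under other settings: 470 kept direction and call, 62 kept direction and lost the call, and 2 reversed. The 2 that reversed were Flt4 at P14 with antimiR-34a, at 0.18 under quantile normalization and 0.18 in the authors' log2 values. For genes with 1 probe the median of probes could not change the value, so the 470 include outcomes fixed in advance. The oxygen changes of Vegfa and Vegfb at P5, and of Vegfb, Nrp1 and Nrp2 at P14, kept direction and call under each setting run. Of 76 uncalled changes, 14 were called under at least 1 setting, for Vegfa at P14 with the median of both probes at 0.53 and 0.51. Of the 13 counts of called members, 232 of 252 recomputed values stayed within 1.5 times. Here too some settings refit the same model: the slide as a block for antimiR, and only the compared groups for the interactions of antimiR and oxygen. The count of 1 between ages at 85% O2 became 2 with normexp, 4 with quantile normalization, 3 with probes above background on every array, 2 with only the compared groups, 4 in the authors' values and 2 with the median of probes, and ranged from 1 to 3 when 1 array was left out. The count of 5 for the age difference of the oxygen effect became 3 without the filter on dim probes, 3 without both P14 arrays of outlying brightness (chosen after the data were seen), and ranged from 3 to 5 when 1 array was left out, with Flt4 (-0.26 to -0.44) and Vegfb (0.23 to 0.34) near the threshold. Flt4 also lost that call under 6 of 9 other settings (-0.04 with normexp) and Vegfb under 4. Vegfa lost that call with the median of probes (-0.03). When 1 array was left out, the other counts ranged from 2 to 3 (P5, scrambled antimiR), 2 to 2 (P5, antimiR-34a), 6 to 6 (P14, scrambled antimiR), 4 to 7 (P14, antimiR-34a), 5 to 6 (ages at 21% O2) and 0 to 0 for each antimiR comparison.

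Deviations of same-numbered lungs of different groups had median correlations of 0.009 (P5, range -0.126 to 0.154) and 0.041 (P14, -0.354 to 0.499). For lungs of different numbers the medians were -0.011 (-0.334 to 0.383) and -0.022 (-0.808 to 0.725), so replicate numbers gave no clear pairing. With the replicate block the counts of called members were 2, 2, 6 and 6 for oxygen, 6, 1 and 5 for age, and 0 for each antimiR comparison, as without it. Over all probes, the block moved the 49 antimiR calls at P5 in 21% O2 to 7, and other settings moved them from 1 to 410, the 23 at 85% O2 from 0 to 4318, the 0 at P14 in 21% O2 from 0 to 6729, the 1025 at 85% O2 from 0 to 1170, and the 20 and 34 of the antimiR and oxygen interactions from 4 to 32 and 0 to 6825. The values of 6729 and 6825 came without both P14 arrays of outlying brightness, and 4318 without the filter on dim probes. The 16493 of the ages at 85% O2 became 10713 with the methods' t-test. The cause of these shifts was not tested. The slide as a block could not be fitted for oxygen or age, and the methods' t-test gives no interaction. With 4 arrays a group and low signal, Flt4 and the other Flt1 probe are the least certain.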
